A study of Homo sapiens with 6 samples.

Results

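The cornified envelope and late differentiation genes analysed here are a set of 42 genes, chosen by name as structural proteins of the cornified envelope or as proteins that keratinocytes make late in their differentiation. All 42 were found among the 21475 genes used, and 32 of them reached the mean of 0.5 FPKM (fragments per kilobase of transcript, normalized to the depth of the library) that was required for testing. The filter used the mean of all 6 libraries, so that a gene high in only 1 library could pass it. They were compared between 3 wild-type (WT) and 3 *FGFR2* knockout (KO) HaCaT cell lines, with 1 RNA-seq library per line. HaCaT cells are human keratinocytes that became immortal spontaneously in culture. The KO lines were made by CRISPR/Cas9 cutting in an exon of *FGFR2*, the gene of the main receptor for FGF7 and FGF10 in keratinocytes, followed by single-cell sorting and clonal expansion, so that each KO line was 1 clone. All lines were grown in medium with serum and no added agent is named in their labels. The study describes its WT lines as clonally expanded cells and as the parental population, and the labels do not say which replicate was which, so a clone and its genotype cannot be told apart within a single library.

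Keratinocytes that leave the basal layer replace their plasma membrane by the cornified envelope, a sheet of proteins that transglutaminases cross-link and to which lipids are attached. Involucrin, periplakin and envoplakin form the early scaffold, loricrin and the small proline-rich proteins reinforce it later, and filaggrin packs the keratin filaments. Proteases, protease inhibitors and lipid-processing enzymes control shedding and the permeability barrier of the skin. Many of these genes lie side by side in the epidermal differentiation complex of chromosome 1.

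Of the 42 genes, 18 lay in this complex, between positions 152153595 and 153262124 of chromosome 1 (GRCh38), a span of 1.11 Mb. To show what their promoters have in common, the 250 bases before the annotated start were read from the RefSeq promoter table (GRCh38.p14), which held 34 of the 42 genes. The letters searched were TGANTCA, a pattern that reads the same on both strands. It covers TGAGTCA and TGACTCA, the core bound by AP-1 (dimers of FOS and JUN proteins), and also the looser forms TGAATCA and TGATTCA. Some genes, such as *FLG* and *RPTN*, matched only through a looser form. Any of these forms was present in 18 of 34 genes (52.9%). The share was 2200 of all 27305 genes in the promoter table (8.06%) and 605 of 9809 tested genes (6.17%). Among genes of the set the share was 12 of 16 (75.0%) on chromosome 1 and 6 of 18 (33.3%) elsewhere. The letters TATAAA, searched in the last 50 bases on the coding strand after the sequences had been seen, were present in 14 of 34 genes (41.2%), against 3.33% of all genes in the table. Both counts describe letters in a window, and binding of a factor was not measured.

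The 6 promoters below belong to an early scaffold gene, 3 small proline-rich genes and the 2 tested genes with the most negative fold changes of the set over all 6 libraries (*CASP14* and *RPTN*). They run 5′ to 3′ on the strand of the gene, directly up to its annotated start, in lower case with each TGANTCA match in capitals.
*IVL*, chr1:152908296-152908545, + strand: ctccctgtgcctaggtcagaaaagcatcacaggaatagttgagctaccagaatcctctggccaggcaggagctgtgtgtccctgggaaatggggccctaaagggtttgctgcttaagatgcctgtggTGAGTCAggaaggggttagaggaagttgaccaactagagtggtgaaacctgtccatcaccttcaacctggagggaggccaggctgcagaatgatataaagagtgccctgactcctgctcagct
*SPRR1A*, chr1:152983831-152984080, + strand: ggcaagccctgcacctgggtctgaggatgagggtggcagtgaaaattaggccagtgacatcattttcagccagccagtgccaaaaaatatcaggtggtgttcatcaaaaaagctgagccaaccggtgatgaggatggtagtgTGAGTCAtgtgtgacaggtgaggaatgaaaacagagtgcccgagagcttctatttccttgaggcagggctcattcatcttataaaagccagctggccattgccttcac
*SPRR1B*, chr1:153030953-153031202, + strand: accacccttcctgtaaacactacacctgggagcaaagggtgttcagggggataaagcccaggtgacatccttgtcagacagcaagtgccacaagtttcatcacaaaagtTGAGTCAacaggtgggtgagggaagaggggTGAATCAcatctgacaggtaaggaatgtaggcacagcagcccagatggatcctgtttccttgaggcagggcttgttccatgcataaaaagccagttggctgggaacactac
*SPRR2A*, chr1:153057513-153057762, - strand: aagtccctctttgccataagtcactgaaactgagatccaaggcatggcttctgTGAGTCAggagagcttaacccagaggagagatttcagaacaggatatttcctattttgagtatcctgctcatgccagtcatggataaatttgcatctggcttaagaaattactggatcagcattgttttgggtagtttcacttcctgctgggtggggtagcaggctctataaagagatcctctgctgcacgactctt
*RPTN*, chr1:152159229-152159478, - strand: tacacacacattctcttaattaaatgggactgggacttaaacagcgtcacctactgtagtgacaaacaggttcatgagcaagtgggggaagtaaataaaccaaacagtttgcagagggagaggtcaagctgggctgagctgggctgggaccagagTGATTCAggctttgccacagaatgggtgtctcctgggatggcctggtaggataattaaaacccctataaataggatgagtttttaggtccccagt
*CASP14*, chr19:15049230-15049479, + strand: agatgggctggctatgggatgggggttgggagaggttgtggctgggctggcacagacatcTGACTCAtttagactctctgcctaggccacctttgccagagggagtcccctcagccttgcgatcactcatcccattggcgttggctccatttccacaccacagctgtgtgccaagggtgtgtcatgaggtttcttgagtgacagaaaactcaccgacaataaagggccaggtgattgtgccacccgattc
The match began 123 bases before the start in *IVL*, 108 in *SPRR1A*, 197 in *SPRR2A*, 95 in *RPTN* and 190 in *CASP14*. *SPRR1B* had a pair of matches, 141 and 111 bases before its start. Each promoter shown held a match, but other genes of the set had none. Among these were *CNFN* and *TGM5*, named below as lower in KO at the unadjusted limit. A link between the letters and the fold changes was not tested.

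As a check of the labels, *FGFR2* was measured at 21.6, 39.7 and 15.0 FPKM in WT replicates 1 to 3 and at 3.04, 2.26 and 4.31 FPKM in KO replicates 1 to 3. Its mean in KO was 12.6% of that in WT, and the groups did not overlap. The libraries held an estimated 67400000 to 87600000 fragments, at which 1 fragment of a transcript of 1 kb was worth 0.0114 to 0.0148 FPKM. All 9 keratinocyte markers examined were present, with *KRT5* at 6086 to 14770 FPKM. Mitochondrial genes made up 21.5% to 27.6% of the summed FPKM in WT and 11.9% to 23.7% in KO.

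The set of genes was expressed over a wide range of levels. In the mean of the 6 libraries, 7 genes reached 100 FPKM (*SPRR1B*, *PPL*, *CSTA*, *LYPD3*, *IVL*, *SPRR1A* and *PI3*) and 18 reached 5 FPKM. *SPRR1B* was the gene of the set with the highest mean (417 FPKM, rank 199 of all genes), followed by *PPL* (275 FPKM) and *CSTA* (244 FPKM). At the other end, *LORICRIN*, the main protein of the mature envelope in the epidermis, was present at 0.112 to 0.415 FPKM. The summed level of all 42 genes was 1964, 1526 and 3108 FPKM in WT replicates 1 to 3 and 3073, 1615 and 804 FPKM in KO replicates 1 to 3. The sums of the groups overlapped, with WT replicate 3 and KO replicate 1 highest and KO replicate 3 lowest.

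**Figure D1:**
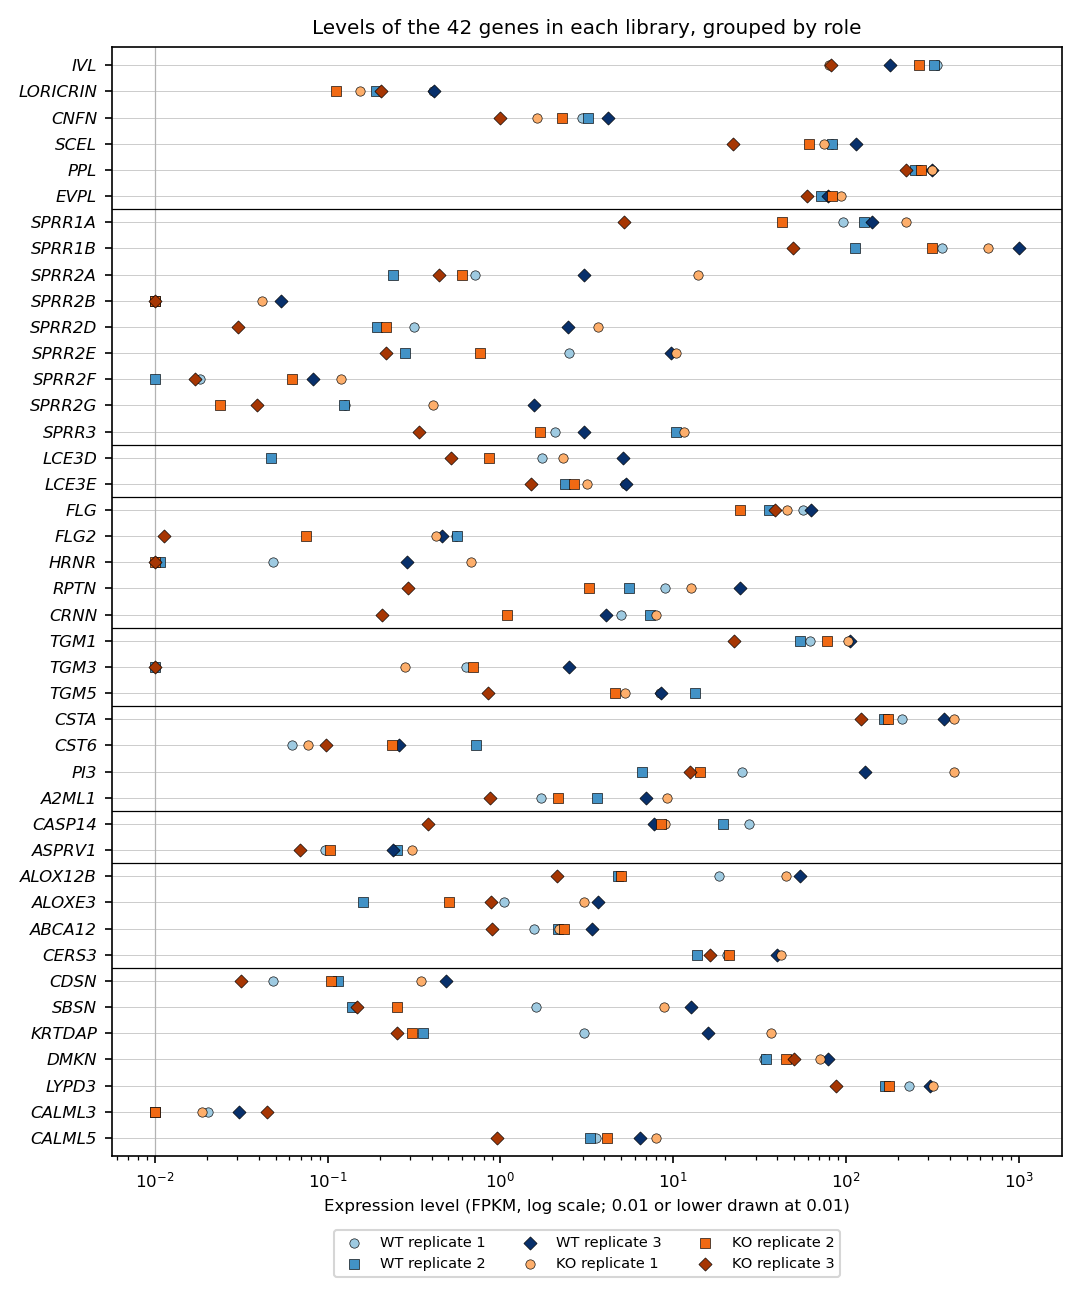
Level of each of the 42 genes in FPKM on a log scale, with 1 point per library (blue, WT; orange to brown, KO) and horizontal lines between the roles; values of 0.01 FPKM or lower are drawn at 0.01. WT replicate 3 (dark blue diamonds) and KO replicate 1 (light orange circles) are often on the right, and KO replicate 3 (brown diamonds) is often on the left, as for *SPRR1A* at 5.22 FPKM.

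None of the 32 tested genes passed the test between KO and WT (limma, with limits of 0.05 for the adjusted p and of 0.5 for the absolute log2 fold change), and 0% of all 12241 genes tested did, the smallest adjusted p being 0.261. When the limit of 0.05 was applied to the unadjusted p instead, 3 genes of the set (9.38%) were lower in KO, *IVL*, *CNFN* and *TGM5*, against 2.33% of all genes tested. In the other direction 0 genes of the set met these limits, against 10.2% of all genes tested. All 3 KO values lay below all 3 WT values in 3 of the 32 genes, *CNFN*, *SCEL* and *TGM5*, against 5.77% of all genes tested. All 3 KO values lay above in 0 genes of the set, against 18.3% of all genes. The shares of all genes that lay higher or lower, here and below, are from values without further scaling and were not counted after scaling. The median log2 fold change of all genes was 0.09 without scaling, 0.01 after scaling to nuclear genes and -0.02 after median-of-ratios scaling. That of the set was -0.42, -0.49 and -0.51 in the same order. With 3 against 3 libraries, an exact two-sided permutation test of a single gene cannot give a p below 0.1. *FGFR2* itself did not pass the adjusted limit in the limma fit (log2 fold change -2.73 ± 0.36 (SE), adjusted p = 0.261). Failing this test therefore does not show that a gene was unchanged. The study, which used DESeq2, reported genes that differed between KO and WT, with *FGFR2* strongly lower.

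The sign of the fold change was negative for 26 of the 32 genes (81.2%), against 39.4% of all genes tested. Their median log2 fold change was -0.42, against 0.09 for all genes. Both values rested on single lines: without KO replicate 3 the sign was negative for 13 genes and the median was 0.07, and without WT replicate 3 it was negative for 16 of the 31 genes still tested, with a median of -0.03. Without KO replicate 1 the sign was negative for 31 genes, with a median of -0.91, and 9 genes instead of 3 were lower at the unadjusted limit. The share of all genes past that limit without KO replicate 1 was not counted. In bulk RNA, fewer differentiated cells in a culture and less of these transcripts per cell cannot be told apart. The study states that growth to higher confluency induces differentiation of HaCaT cells. It also states that its clonally expanded cells lost terminal differentiation in 3D skin cultures. The sample titles do not give the density of each culture, and its part in these values was not tested.

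**Figure D2:**
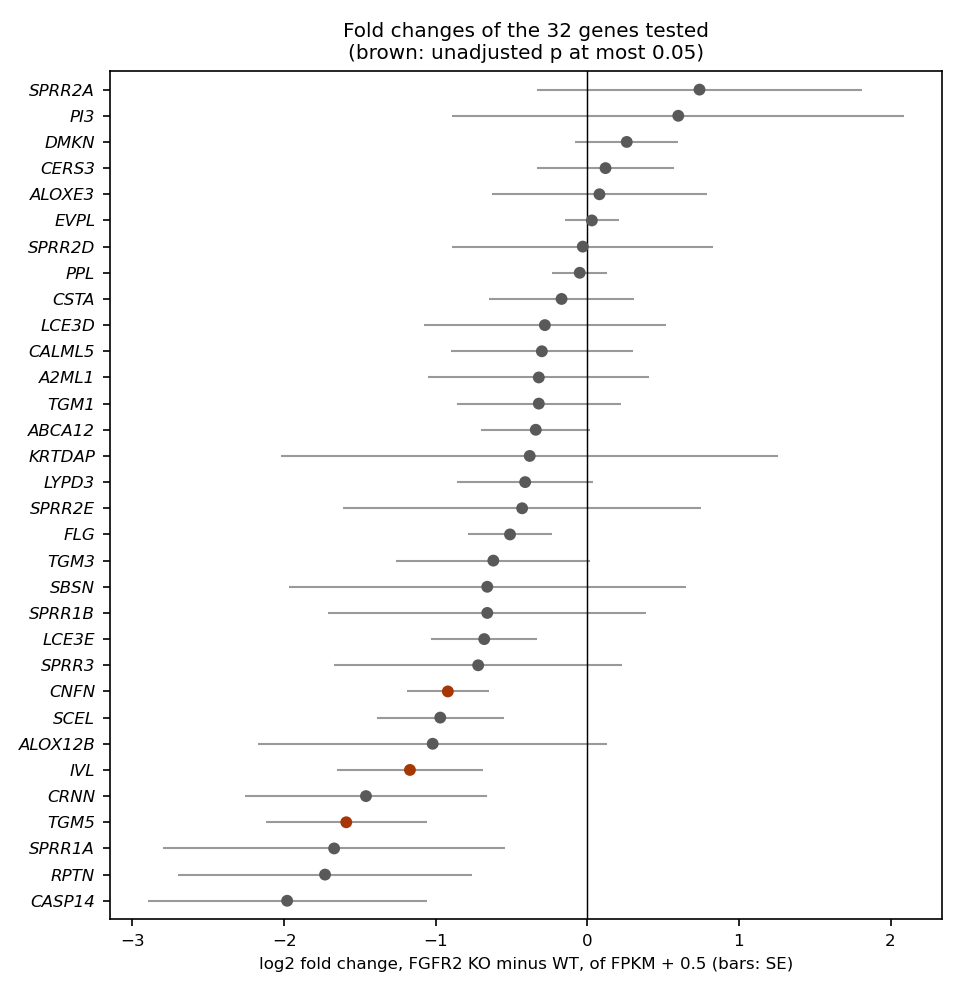
log2 fold change (FGFR2 KO minus WT, of FPKM + 0.5) of the 32 genes tested, ordered by size, with bars for the SE (3 libraries per group). The 3 genes with an unadjusted p of at most 0.05 are brown, 26 points lie left of 0, and many bars are longer than the distance of their point from 0.

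Among the envelope scaffold and linker genes, 4 of the 5 tested had a negative fold change and none passed the adjusted test. *IVL*, which encodes involucrin, was expressed at 338, 324 and 180.3 FPKM in WT replicates 1 to 3 and at 79.7, 265 and 81.8 FPKM in KO replicates 1 to 3. KO replicates 1 and 3 were below every WT library, and KO replicate 2 lay inside the WT range. The KO mean was 50.6% of the WT mean (281 ± 87.2 FPKM in WT and 142 ± 106 FPKM in KO, SD, n = 3), and the log2 fold change was -1.17 ± 0.48 (SE), with an adjusted p of 0.285. *CNFN*, the gene of cornifelin, was at 2.95, 3.22 and 4.18 FPKM in WT and at 1.62, 2.27 and 1.0 FPKM in KO. These groups did not overlap, and the log2 fold change was -0.92 ± 0.27 (adjusted p = 0.261).

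*SCEL*, encoding the envelope precursor sciellin, was at 82.5, 82.7 and 114 FPKM in WT and at 74.2, 61.5 and 22.2 FPKM in KO. The groups did not overlap, but KO replicate 1 was only a little below the WT libraries, and the log2 fold change of -0.97 ± 0.42 had an adjusted p of 0.300 and was -0.44 without KO replicate 3. *PPL*, the gene of the plakin periplakin, was at 270.1, 249.9 and 316 FPKM in WT and at 317, 271 and 224 FPKM in KO. *EVPL*, the gene of its partner envoplakin, was at 78.6, 71.6 and 78.7 FPKM in WT and at 94.2, 83.2 and 59.5 FPKM in KO. For both plakins the groups overlapped and the highest library was no more than 1.58 times the lowest. *LORICRIN* was not tested and overlapped between the groups.

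The small proline-rich genes, whose products bridge other envelope proteins, differed far more between lines than between groups. *SPRR1A* was at 96.8, 128 and 141 FPKM in WT and at 222, 42.5 and 5.22 FPKM in KO. The WT lines stayed within 1.46-fold of each other, whereas the KO lines spanned 42.5-fold and lay on both sides of the WT range. Its log2 fold change was -1.67 ± 1.13 (adjusted p = 0.463), and it was -0.31 without KO replicate 3 and -2.95 without KO replicate 1. *SPRR1B* was at 361, 113 and 1001 FPKM in WT and at 665, 313 and 49.5 FPKM in KO. Here the WT lines themselves spanned 8.88-fold, and the log2 fold change was -0.66 ± 1.05 (adjusted p = 0.764), which turned to 0.40 without KO replicate 3 and to 0.11 without WT replicate 3.

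*SPRR2A* ranged from 0.239 to 3.06 FPKM in WT and from 0.442 to 14.0 FPKM in KO. *SPRR2E* ranged from 0.280 to 9.71 FPKM in WT and from 0.218 to 10.4 FPKM in KO, and *SPRR2D* from 0.193 to 2.47 FPKM and from 0.0302 to 3.68 FPKM. In all of these, KO replicate 1 was the highest library and WT replicate 3 the next. *SPRR3*, from 2.08 to 10.3 FPKM in WT and from 0.337 to 11.5 FPKM in KO, departed from this order, with WT replicate 2 next to KO replicate 1. *SPRR2B*, *SPRR2F* and *SPRR2G* were not tested, and *SPRR2B* was listed at 0 in 4 of the 6 libraries, where 3 fragments would have been worth 0.0512 to 0.0658 FPKM. Of the 31-base words of *SPRR2A* transcripts 52.7% also occurred in other genes, and from 11.1% to 48.3% in the other *SPRR2* genes, so that levels within this family are uncertain. *SPRR1A* and *SPRR1B* shared 13.9% and 15.6% of their words with each other.

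The late cornified envelope genes were low. *LCE3E* ranged from 2.36 to 5.30 FPKM in WT and from 1.51 to 3.16 FPKM in KO, with a log2 fold change of -0.68 ± 0.35 (adjusted p = 0.358), which was -0.42 without KO replicate 3. *LCE3D* ranged from 0.0472 FPKM in WT replicate 2, which corresponds to 2.0 fragments, to 5.12 FPKM in WT replicate 3, and the 3 KO lines lay between these values at 0.515 to 2.30 FPKM. The genes shared 21.2% and 22.7% of their words with other genes, mostly with each other.

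All 3 tested fused-type S100 genes, a family of long repeat-containing proteins that includes filaggrin, had a negative fold change and none passed the test. *FLG* was at 56.1, 35.9 and 62.9 FPKM in WT and at 45.3, 24.5 and 38.9 FPKM in KO. The groups overlapped through WT replicate 2, and the log2 fold change was -0.51 ± 0.28 (adjusted p = 0.387), which was -0.26 without KO replicate 2. Of the words of *FLG*, 16.8% also occurred in the antisense gene *FLG-AS1*. *RPTN*, encoding repetin, was at 8.92, 5.58 and 24.3 FPKM in WT and at 12.7, 3.24 and 0.293 FPKM in KO. KO replicate 1 exceeded 2 of the 3 WT libraries, while KO replicate 3 was the lowest. The log2 fold change was -1.73 ± 0.97 (adjusted p = 0.391), and it was -0.68 without KO replicate 3 and -2.71 without KO replicate 1.

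*CRNN*, encoding cornulin, ranged from 4.09 to 7.29 FPKM in WT, within 1.78-fold. Its levels in KO were 7.97, 1.09 and 0.206 FPKM, so that KO replicate 1 was above and the other KO lines were below every WT library. *FLG2* and *HRNR* were too low for the test. *FLG2* was at 0.554, 0.561 and 0.461 FPKM in WT and at 0.425, 0.0751 and 0.0113 FPKM in KO, without overlap. *HRNR* was at or below 0.0107 FPKM in WT replicate 2 and KO replicates 2 and 3 and reached 0.672 FPKM in KO replicate 1.

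All 3 transglutaminases, the cross-linking enzymes, had a negative fold change. *TGM5* was at 8.34, 13.4 and 8.51 FPKM in WT and at 5.27, 4.63 and 0.853 FPKM in KO. The groups did not overlap, the KO mean was 35.6% of the WT mean, and the log2 fold change was -1.59 ± 0.53 (adjusted p = 0.261), or -0.93 without KO replicate 3. *TGM1*, the membrane-bound enzyme, was at 61.6, 54.5 and 106 FPKM in WT and at 103, 78.1 and 22.4 FPKM in KO, with overlapping groups. *TGM3* ranged from almost 0 to 2.48 FPKM in WT and from 0.00104 to 0.690 FPKM in KO, and 94.8% of its words also occurred in an overlapping annotated gene, so that its level is uncertain.

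Among the protease inhibitors, *CSTA*, the gene of cystatin A, was at 210.1, 165 and 370.2 FPKM in WT and at 420.0, 176 and 121 FPKM in KO. *PI3*, encoding elafin, an inhibitor of neutrophil elastase that is cross-linked into the envelope, was at 25.1, 6.58 and 128 FPKM in WT and at 421, 14.3 and 12.4 FPKM in KO. Both genes were highest in KO replicate 1 and next highest in WT replicate 3, and the groups overlapped. The mean of *PI3* in KO was 280% of that in WT, with a log2 fold change of 0.60 ± 1.49 (adjusted p = 0.858), and without KO replicate 1 the log2 fold change was -1.05. *A2ML1*, a protease inhibitor of the alpha-2-macroglobulin family, ranged from 1.72 to 6.99 FPKM in WT and from 0.875 to 9.26 FPKM in KO, and *CST6* was not tested.

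*CASP14*, encoding the caspase that takes part in filaggrin breakdown, had a log2 fold change of -1.98 ± 0.92 (adjusted p = 0.318), which was -0.85 without KO replicate 3. Its levels were 27.4, 19.4 and 7.73 FPKM in WT and 8.94, 8.50 and 0.378 FPKM in KO. KO replicates 1 and 2 were close to WT replicate 3, and KO replicate 3 was below all of them. *ASPRV1*, a skin-type aspartic protease gene, stayed at 0.0687 to 0.307 FPKM, and 99.0% of its words also occurred in *PCBP1-AS1*.

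Of the 4 lipid barrier genes, 2 had a negative and 2 a positive fold change. *ALOX12B*, encoding a lipoxygenase that prepares ceramides for attachment to the envelope, was at 18.4, 4.78 and 54.1 FPKM in WT and at 45.2, 5.01 and 2.13 FPKM in KO. *CERS3*, the ceramide synthase of very long acyl chains, was at 20.6, 13.8 and 39.7 FPKM in WT and at 42.3, 20.9 and 16.3 FPKM in KO. Both were high in WT replicate 3 and KO replicate 1, and the groups overlapped. *ALOXE3*, which acts after *ALOX12B*, ranged from 0.159 to 3.65 FPKM in WT and from 0.507 to 3.06 FPKM in KO. *ABCA12*, the lipid transporter of lamellar granules, ranged from 1.57 to 3.39 FPKM in WT and from 0.890 to 2.33 FPKM in KO. Of the words of *ALOX12B*, 20.5% occurred in an overlapping gene.

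Among the adhesion, secreted and calcium-binding genes, 4 of the 5 tested had a negative fold change and none passed the test. *KRTDAP*, encoding keratinocyte differentiation-associated protein, was at 3.06, 0.357 and 16.0 FPKM in WT and at 37.0, 0.308 and 0.253 FPKM in KO. It spanned 44.8-fold among the WT lines and 146-fold among all 6, and it had a larger SD of log2 level than any other gene of the set. *SBSN*, which encodes suprabasin and lies close to it on chromosome 19, ranged from 0.139 to 12.7 FPKM in WT and from 0.148 to 8.83 FPKM in KO. *DMKN*, the dermokine gene between them, was at 33.6, 34.7 and 78.7 FPKM in WT and at 70.6, 45.0 and 49.9 FPKM in KO, a far narrower range. *LYPD3*, which encodes a cell surface protein of the Ly6 family, was at 231, 168 and 305 FPKM in WT and at 321, 178 and 87.7 FPKM in KO. *CALML5*, a calmodulin-like gene of the skin, ranged from 3.29 to 6.44 FPKM in WT and from 0.961 to 7.91 FPKM in KO. Groups overlapped for each of these genes. *CDSN* (corneodesmosin) and *CALML3* were not tested, and 93.8% and 46.8% of their words occurred in other genes.

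The order of the lines recurred across roles. WT replicate 3 had the highest level in 14 and KO replicate 1 in 15 of the 32 tested genes, while these libraries were highest in 9.46% and 12.6% of all genes tested. KO replicate 3 had the lowest level in 22 genes of the set (68.8%), against 20.3% of all genes, and the highest in 0, although it was the highest library for 38.7% of all genes. WT replicate 2 was lowest in 7 genes (21.9%), against 26.1% of all genes. KO replicate 3 was below WT replicate 3 in 32 of 32 genes, with a median log2 difference of -2.29. Among all genes KO replicate 3 was the higher of this pair in 61.2%. KO replicate 1 and WT replicate 3, by contrast, were each the higher of the pair in 16 genes, and the median log2 difference (KO minus WT) was -0.02. Among all genes KO replicate 1 was the higher of that pair in 62.3%. These counts describe 6 lines and were not tested.

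**Figure D3:**
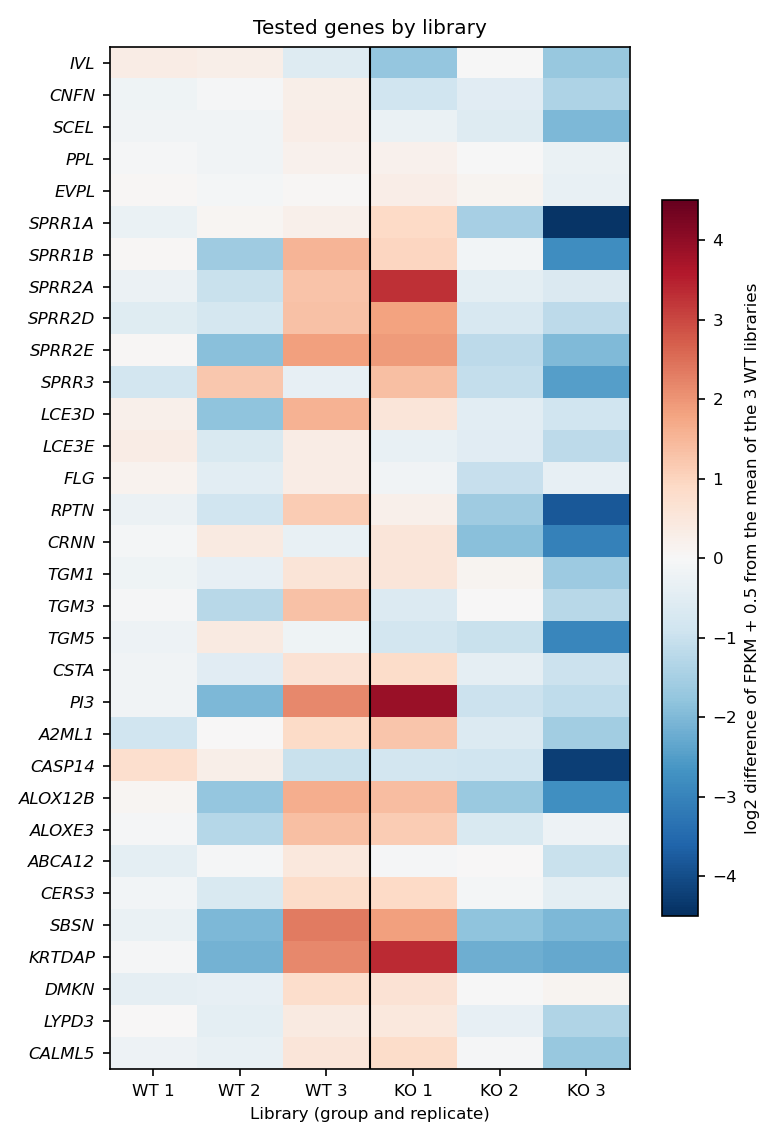
log2 difference of FPKM + 0.5 from the mean of the 3 WT libraries for each of the 32 genes tested (rows, ordered by role) in each library (columns; red, higher; blue, lower). The columns of WT replicate 3 and KO replicate 1 are mostly red, with *IVL*, *TGM5* and *CASP14* blue in both, and that of KO replicate 3 is mostly blue, down to -4.40 for *SPRR1A*.

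*IVL*, *TGM5* and *CASP14* departed from this order and were below the WT mean of log2 levels in WT replicate 3 and KO replicate 1. *IVL* was highest in WT replicate 1 and lowest in KO replicate 1, the line with the highest level in 15 other genes of the set. As a share of the summed level of the set it was 17.2%, 21.2% and 5.80% in WT replicates 1 to 3 and 2.59%, 16.4% and 10.2% in KO replicates 1 to 3. WT replicate 3 and KO replicate 1, which had the highest sums, had the smallest shares of *IVL*, and a high sum lowers the share by itself. In KO replicates 1 and 3 *IVL* was at 79.7 and 81.8 FPKM, while the sums were 3073 and 804 FPKM.

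Relative to the mean of the WT libraries, the median log2 difference of the 32 genes was -0.14, -0.46 and 0.62 in WT replicates 1 to 3 and 0.60, -0.55 and -1.48 in KO replicates 1 to 3. For all genes tested the same medians lay between -0.04 and 0.15, and for all tested genes of chromosome 1 between -0.03 and 0.11. The SD of the log2 level over the 6 libraries had a median of 1.06 in the set and of 0.27 in all genes. Of the 32 genes, 25 (78.1%) exceeded 0.61, the value that 10% of all genes exceeded. Within WT the median SD was 0.72, against 0.20 for all genes, and within KO it was 1.16, against 0.23. It was larger within KO than within WT in 25 of the 32 genes, and in 56.3% of all genes. The 12 tested genes of chromosome 1 had a median SD of 1.44 and the 20 others one of 0.85.

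**Figure D4:**
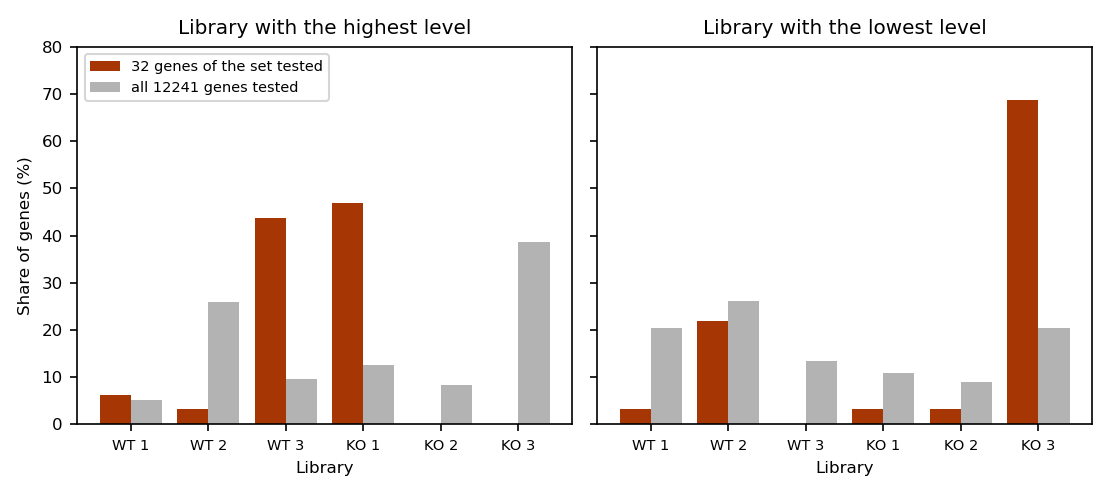
Share of genes (%) for which each of the 6 libraries had the highest level (left) or the lowest level (right), for the 32 genes of the set tested (brown) and all 12241 genes tested (grey). WT replicate 3 and KO replicate 1 together hold most of the highest levels of the set, and KO replicate 3 holds 68.8% of the lowest levels.

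Among 49 other genes of cornification, such as the remaining *LCE* genes, peptidylarginine deiminases and desmosomal proteins, 48 were found by symbol and 26 were tested. None passed the adjusted test. At the unadjusted limit 0 were higher and 2 were lower in KO, against 10.2% and 2.33% of all genes tested. The fold change was negative in 19 of the 26, against 39.4% of all genes, with a median of -0.25. Counts for these genes were not repeated with a line left out. The genes past the unadjusted limit were *LCE1E*, at 10.2, 10.8 and 4.51 FPKM in WT and 2.13, 4.91 and 2.92 FPKM in KO, and *TCHH* (trichohyalin), at 4.38, 5.33 and 4.82 FPKM in WT and 3.79, 2.37 and 1.04 FPKM in KO. *LCE1E* overlapped between the groups and *TCHH* did not. Other tested genes of this list without overlap were *LY6D* and *SMPD1*, lower in KO, and *NIPAL4*, higher in KO, none of them past the unadjusted limit.

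The keratins of suprabasal cells also differed widely between lines. *KRT1* was at 2254, 435 and 5121 FPKM in WT and at 3024, 1145 and 259 FPKM in KO. *KRT10*, its partner, was at 956, 607 and 2056 FPKM in WT and at 1503, 530.0 and 86.2 FPKM in KO. Both were highest in WT replicate 3, next highest in KO replicate 1 and lowest in KO replicate 3, and *KRT2* was at most 2.36 FPKM. Of the 9 keratinocyte markers, KO replicate 3 was below every WT library in 4 (*TP63*, *DSP*, *PKP1* and *JUP*) and inside the WT range in the other 5, among them the basal keratins *KRT5* and *KRT14*. None of the 3 suprabasal keratins and none of the 9 keratinocyte markers passed the adjusted or the unadjusted limit.

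Most markers of other cell types were near 0, but *COL1A1*, *DCN*, *VWF*, *CDH5*, *PMEL* and *CD14* reached the mean required for testing. *COL1A1* ranged from 7.66 to 16.7 FPKM in WT and from 6.82 to 12.2 FPKM in KO. *CDH5* was at 4.92 FPKM in WT replicate 2 and at most 0.128 FPKM elsewhere. *PMEL* ranged from 0.88 to 2.4 FPKM in WT and from 0.70 to 1.1 FPKM in KO, and *CD14* from 0.66 to 1.6 FPKM and from 0.69 to 0.77 FPKM. The summed level of 6 fibroblast markers was 7.99 to 33.2 FPKM in WT and 6.91 to 12.6 FPKM in KO, with *COL1A1* and *DCN* as the only ones tested, *COL3A1* at 0 in all WT libraries, and *DCN* at 15.5 FPKM in WT replicate 2 and at most 1.66 FPKM elsewhere. That of 4 endothelial markers was 18.1 to 27.2 FPKM in WT and 5.82 to 17.5 FPKM in KO, of which *VWF* made up most, and *KDR* was at 0 in all 6 libraries. The 5 leukocyte markers summed to 0.850 to 2.07 FPKM in WT and 0.895 to 1.14 FPKM in KO, with *CD3E* at 0 in KO replicate 3 and *LYZ* in KO replicate 2. The 4 melanocyte markers summed to 0.881 to 2.44 FPKM in WT and 0.708 to 1.07 FPKM in KO, and *TYR* was at 0 in 5 of the 6 libraries. The part of these markers in the results of the set was not tested.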

How the data were processed

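RNA of 3 WT and 3 *FGFR2* KO HaCaT lines had been sequenced from poly(A)-selected, stranded libraries. The authors trimmed reads with fastp 0.20.0 and pseudoaligned them with kallisto 0.46.1 to GRCh38.p13 transcripts (versions from the submitters' processing notes; the study's methods name GENCODE release 37). The deposited values are FPKM per gene; how the authors calculated them from the estimated abundances is not given in the sources used here. Of 21493 genes, 18 were chromosome Y copies that repeated the values of chromosome X and were left out. Of 21475 genes, 21400 received a symbol and position from GENCODE release 44.

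The 12241 genes whose 6-library mean reached 0.5 FPKM were tested as log2(FPKM + 0.5), which understates changes of low genes, with limma 3.58.1 (R 4.3.3), a mean-variance trend, no further scaling, and Benjamini-Hochberg adjustment over all of them. Adjusted p-values are from this fit unless an alternative is named. There was 1 library per line, so p-values measure the spread between lines only. Depth was estimated from the steps between low values. Since 71.3% to 75.2% of these were whole fragments within 0.05 (10.0% by chance), whole reads were not recovered and no count test was run.

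Values per library are given for genes of the set that averaged 5 FPKM or more, were past the unadjusted limit or did not overlap between the groups. The genes of the set, the lists and the tests were chosen with earlier results of these data known. Words of 31 bases, the default length of kallisto, were compared on both strands between GENCODE release 44 transcripts. Words shared only with a gene of the opposite strand were therefore counted, although the libraries were stranded. Alternatives covered pseudocount, filter, scaling, variance model, library weights, a replicate block and leaving out each library.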

Additional observations from a re-analysis of the deposited data

How the results depend on the processing

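Each group had 3 libraries, and levels under about 0.05 FPKM rest on few fragments. No gene was called under 18 of 19 alternatives. With library weights, in which WT replicate 1 took 89.7% of the WT weight, 1396 of 12241 genes were called, 1160 higher and 236 lower in KO. Of the 32 genes of the set 2 were called. They were lower in KO (*IVL*, adjusted p = 0.0373, range over alternatives 0.0373 to 0.697, and *CNFN*, 0.0465, range 0.0465 to 0.635). With calls in either direction counted, the share called was smaller in the set than among all genes. With only calls lower in KO counted, it was larger in the set (2 of 32, against 236 of 12241). Calls higher in KO were 0 of 32, against 1160 of 12241. Under these weights 8 genes of the set were past the unadjusted limit, 14 had a negative fold change, the median was 0.10, and the log2 fold changes of *SPRR1B* (0.0015), *SPRR3* (0.94) and *SBSN* (0.54) turned positive; the cause was not tested. With the replicate number as a block, 5 genes of the set were past the unadjusted limit instead of 3. Deviations of same-numbered libraries from their group means correlated at -0.21, 0.22 and 0.05. Those of differently numbered libraries correlated at -0.37 to 0.29. With so few lines these values cannot decide whether the numbers pair the lines, and the labels name no pairing. Leaving out each library in turn gave 2 to 9 genes of the set past the unadjusted limit (9 without KO replicate 1, 5 without WT replicate 3), 3 to 8 without overlap (8 without KO replicate 1, 6 without WT replicate 3, 5 without WT replicate 2) and 13 to 31 with a negative fold change. The log2 fold change then ranged from -1.05 to 1.68 for *PI3*, from -0.54 to 1.44 for *SPRR2A*, from -1.46 to 0.40 for *SPRR1B*, from -1.77 to 0.15 for *SPRR3* and from -1.91 to 0.51 for *SBSN*. Under the alternatives, the shares of all genes past the unadjusted limit or without overlap were not counted, so these counts say nothing particular to the set. With fewer libraries in a group, the groups also separate more easily. Among 17 genes with a fold change of at least 0.5 in size, 11 of 321 values changed direction and 2 became called. The other 308 kept their direction and side of the threshold, whatever their size. *SPRR1A*, for example, was counted as unchanged at -2.95 without KO replicate 1 and at -0.31 without KO replicate 3. As no gene was called under 18 of 19 alternatives, keeping the side of the threshold carries little weight. The median over all genes, 0.09 without scaling, was -0.02 after median-of-ratios scaling.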
